A study of Mus musculus with 6 samples.

Results

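Slc4a1, Ank1, Epb42, Sptb, Ermap and Kel encode proteins of the red blood cell membrane, and their transcripts were followed across the 6 libraries of a study of mouse mesoderm progenitor cells. The 6 genes were taken by name from the deposited table of 19342 gene names, where Epb42 stands under its older symbol Epb4.2. The genes were chosen by their levels across these same 6 libraries, so the levels and ratios below are a description and no test was run on them.

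The cells came from C57BL/6 mice and grew with mouse embryonic fibroblasts as feeders, which were from wild type C57BL/6 mice and had been treated with mitomycin C to stop their division, in medium with fetal bovine serum. Stranded total RNA was sequenced from 1 library for each condition. The untreated conditions, with no growth factor, are 0 h and 96 h in culture. The other 4 libraries received recombinant growth factors after 96 h: rhBMP4 for 5 h (101 h in culture), rhBMP4 for 11 h (107 h), rhBMP4 and rhFGF8 for 5 h (101 h), and rhBMP4 and rhFGF4 for 11 h (107 h). Doses are not stated in the labels, no untreated library of 101 h or 107 h is among the samples, and whether feeder cells were removed before RNA extraction is not stated. Column totals lay between 179196459 and 272743104 counts. Tailbud markers were present at 0 h, where T (Brachyury) stood at 83.3 CPM (counts per 1000000, with libraries scaled by TMM) against 7.65 CPM at 96 h. The BMP4 5 h library was close to the 0 h library for most genes: the 5th and 95th percentiles of the log2 ratio over all genes were -0.17 and 0.23, whereas between 96 h and 0 h they were -0.65 and 0.83. Over genes matched in all libraries, log2 counts of the BMP4 5 h library correlated at 0.9905 with 0 h and 0.9647 with 96 h. For the FGF8 library these values were 0.9912 and 0.9675. Both are nevertheless given as 101 h in culture. Why they were closer to 0 h than to 96 h was not tested, and no course over time is read from these libraries.

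The red cell membrane is carried by a protein skeleton of spectrin beneath the lipid bilayer, and inherited loss of a link between skeleton and bilayer gives fragile, rounded red cells in mice and people. Band 3, the product of Slc4a1, exchanges chloride for bicarbonate and anchors the skeleton. Ankyrin-1 (Ank1) ties band 3 to beta spectrin (Sptb), and protein 4.2 (Epb42), a relative of the transglutaminases without enzyme activity, stabilises that contact. Ermap is an erythroid adhesion and receptor protein that carries the Scianna blood group in humans, and Kel is the Kell blood group metallopeptidase, which in humans activates endothelin-3. In mouse embryos, the earliest red cells arise in the yolk sac from mesoderm, and these genes come on as erythroblasts mature.

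In the mm10 (GRCm38) annotation of GENCODE M21, Slc4a1 lies on chromosome 11 (102348824 to 102366203, minus strand), Ank1 on chromosome 8 (22974844 to 23150497, plus strand), Epb42 on chromosome 2 (121017891 to 121037072, minus strand) and Sptb on chromosome 12 (76580488 to 76710547, minus strand). Ermap lies on chromosome 4 (119175457 to 119190011, minus strand) and Kel on chromosome 6 (41686330 to 41704339, minus strand), so no chromosome holds more than 1 of them. Because the genes move together, the 250 bases before the RefSeq transcript start (GRCm38.p6) were read for the 4 members with an entry in the promoter table. They were searched on both strands for the GATA factor motif (AGATAA or TGATAA), for TATAAA and for CCNCNCCC. The last is a loose pattern for the CACCC box bound by KLF factors. It also matches sites without CACCC and misses some sites with it. Capitals mark the matches, which are descriptions of the letters and not evidence of binding.
Kel (chr6:41704326-41704575, minus strand): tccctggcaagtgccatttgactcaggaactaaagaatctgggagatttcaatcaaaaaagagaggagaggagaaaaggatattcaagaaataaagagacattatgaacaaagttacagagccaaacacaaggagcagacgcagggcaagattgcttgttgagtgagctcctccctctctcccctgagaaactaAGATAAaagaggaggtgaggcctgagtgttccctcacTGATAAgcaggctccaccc
Ermap (chr4:119189996-119190245, minus strand): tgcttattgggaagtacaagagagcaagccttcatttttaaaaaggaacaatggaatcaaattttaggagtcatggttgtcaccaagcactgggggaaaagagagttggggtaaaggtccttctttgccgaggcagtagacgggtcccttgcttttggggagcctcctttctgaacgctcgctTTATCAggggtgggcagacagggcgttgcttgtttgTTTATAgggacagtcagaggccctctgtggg
Epb42 (chr2:121036878-121037127, minus strand): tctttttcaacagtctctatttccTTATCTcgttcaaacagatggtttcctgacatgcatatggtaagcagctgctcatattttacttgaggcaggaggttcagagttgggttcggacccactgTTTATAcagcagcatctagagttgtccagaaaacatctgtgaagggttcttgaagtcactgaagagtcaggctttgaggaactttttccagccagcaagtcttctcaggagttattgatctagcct
Sptb (chr12:76710548-76710797, minus strand): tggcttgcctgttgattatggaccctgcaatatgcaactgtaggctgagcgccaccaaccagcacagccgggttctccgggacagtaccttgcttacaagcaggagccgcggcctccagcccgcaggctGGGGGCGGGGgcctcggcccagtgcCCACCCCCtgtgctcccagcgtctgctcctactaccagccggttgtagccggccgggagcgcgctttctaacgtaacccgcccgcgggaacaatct

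The Kel window holds AGATAA 56 bases and TGATAA 19 bases before the start. The Ermap window holds the GATA motif on the other strand (TTATCA) 67 bases before the start and TTTATA, the other strand of TATAAA, 31 bases before it. The Epb42 window has TTATCT 226 bases and TTTATA 126 bases before the RefSeq start. In GENCODE M21, however, Epb42 reaches to 121037072 on the minus strand. Most of its window, with TTTATA, thus lies inside the annotated gene, and these distances hold for the RefSeq start only. The Ermap and Kel windows overlap their annotated genes only at the end next to the start. The Sptb window has no GATA or TATAAA match, but 3 matches to CCNCNCCC. Of these, a pair overlap (GGGGGCGG and GGGCGGGG) and hold no CACCC on either strand. Only CCACCCCC, 96 bases before the start, holds CACCC. Of 32851 windows of this length, 16.6% hold the GATA motif, 45.9% CCNCNCCC and 12.4% TATAAA.

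The 4 growth factor columns of the table hold more values than there are names, so they had to be matched to the names in sorted order before any level could be read. Slc4a1, Ank1, Epb42, Sptb and Ermap were placed securely in all 4 columns, with the same counts whether the match used both untreated columns or either of them alone. Kel was placed securely in the columns with FGF8 and with FGF4. In the BMP4 11 h column its row was fixed only by matching that column to the FGF4 column of the same time, and in the BMP4 5 h column it is 1 of 3 successive rows with 10, 8 and 1 counts. The row of 10 counts is used here as the upper value, and Kel is outside the 17439 placed genes over which background shares were computed. Of these, 14036 reached at least 1 CPM in at least 1 library and are the genes meant by all genes below. Matching cost rose outside the range of the untreated libraries. Genes that growth factors moved beyond both may therefore be under-represented among all genes, which was not tested. The 5 placed members passed the filter of 1 CPM. Ank1, Epb42 and Ermap did so only through the 96 h and 11 h libraries, Slc4a1 through these and the FGF8 library, and Sptb in every library.

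Slc4a1 had the widest range of the members. It was at 0.0457 CPM at 0 h (10 counts), 73.9 CPM at 96 h (20084 counts), 0.262 CPM with BMP4 for 5 h (58 counts), 1.44 CPM with BMP4 and FGF8 for 5 h (325 counts), 50.7 CPM with BMP4 for 11 h and 50.1 CPM with BMP4 and FGF4 for 11 h. The 96 h library was thus highest, both 11 h libraries lay close together below it, and the 0 h and 5 h libraries were lower by more than an order of magnitude, with the FGF8 library highest among those 3. In order of level the 11 h libraries were the only neighbours whose counting intervals overlapped, at 49.7 to 51.8 and 49.1 to 51.0 CPM.

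Epb42, whose product sits on band 3, was at 0.00914 CPM at 0 h, from 2 counts, and at 8.43 CPM at 96 h. It stood at 0.0226 CPM with BMP4 for 5 h, from 5 counts, 0.169 CPM with FGF8 added, 5.30 CPM with BMP4 for 11 h and 5.26 CPM with FGF4 added. The order of the libraries was that of Slc4a1, and the 0 h and BMP4 5 h values could not be separated at this depth, with intervals of 0.00111 to 0.0330 and 0.00734 to 0.0527 CPM.

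Ank1 and Sptb, the ankyrin and the spectrin chain, were already present at 0 h. Ank1 was at 0.740 CPM at 0 h, 19.7 CPM at 96 h, 0.845 CPM with BMP4 for 5 h, 0.898 CPM with FGF8 added, 11.7 CPM with BMP4 for 11 h and 13.9 CPM with FGF4 added. Sptb was at 1.81 CPM at 0 h, 30.3 CPM at 96 h, 2.12 CPM with BMP4 for 5 h, 2.36 CPM with FGF8 added, 18.7 CPM with BMP4 for 11 h and 23.9 CPM with FGF4 added. For both genes the 0 h and 5 h libraries formed a low group and the others a high group, and the FGF4 library stood above BMP4 alone at 11 h. The share of all genes with such a split was not counted. It is not particular to the members: the endothelial gene Kdr was at no more than 3.35 CPM in the low group and at least 12.5 CPM in the high group. Within the low group, the Ank1 intervals of all 3 libraries overlapped.

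The surface protein genes followed the same split. Ermap was at 0.0823 CPM at 0 h, 12.8 CPM at 96 h, 0.208 CPM with BMP4 for 5 h, 0.338 CPM with FGF8 added, 9.07 CPM with BMP4 for 11 h and 9.37 CPM with FGF4 added. Kel had 0 counts at 0 h, where 3 counts would be 0.0137 CPM, and 8.82 CPM at 96 h. It was at no more than 0.0452 CPM with BMP4 for 5 h, at 0.178 CPM with FGF8 added, 4.49 CPM with BMP4 for 11 h and 8.65 CPM with FGF4 added. Kel was the 1 member whose FGF4 library reached the 96 h level, with intervals of 8.27 to 9.06 and 8.47 to 9.18 CPM.

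**Figure D1:**
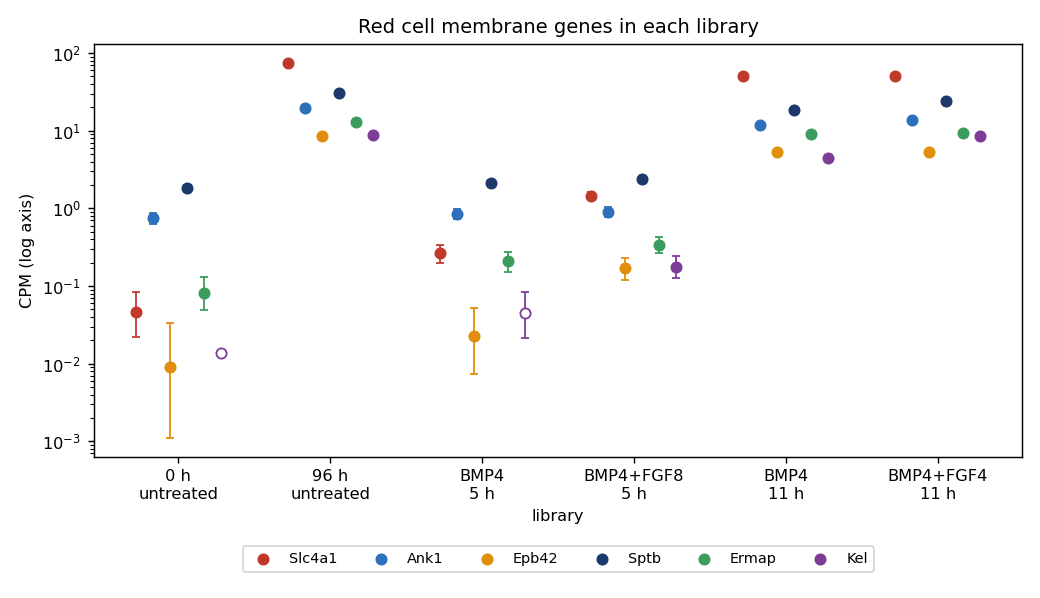
CPM of the 6 genes in each of the 6 libraries, on a log axis, with exact Poisson 95% intervals that cover counting error only. Hollow points mark Kel at 0 h, drawn at the level of 3 counts because it had none, and Kel with BMP4 for 5 h, whose row is uncertain. The filled Kel point with BMP4 for 11 h was placed only through the FGF4 column. Slc4a1 runs from 0.0457 CPM at 0 h to 73.9 CPM at 96 h.

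After 96 h in culture without growth factors, transcripts of all 6 genes were higher than at 0 h. Slc4a1 was 1617-fold higher (counting interval 879 to 3373) and Ermap 156-fold (98.4 to 263). Epb42 was 922-fold higher, with a wide interval of 255 to 7618 because it rests on 2 counts at 0 h. Kel was at least 644-fold higher, set against 3 counts in the 0 h library. The smaller folds belonged to the genes already present at 0 h, Ank1 at 26.7-fold (22.8 to 31.4) and Sptb at 16.7-fold (15.1 to 18.5). A gene was counted as different where its log2 ratio, taken after adding 0.5 CPM to both libraries, was at least 2-fold, which understates changes of weakly expressed genes. By this measure 6 of 6 members were higher, with log2 ratios of 3.73 (Sptb) to 7.09 (Slc4a1) and a median of 4.18. Over all genes the share higher by that measure was 3.85% and the share lower 2.39%, with a median of -0.0027. With 1 library for each condition no difference here has a replicate check, and in bulk RNA more cells of a type and more RNA in each cell cannot be told apart.

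The library with BMP4 for 5 h was lower than 96 h untreated in 6 of 6 members, against 3.28% of all genes (2.36% were higher). Slc4a1 was 282-fold lower (218 to 371), Ermap 61.6-fold (46.1 to 84.3), Ank1 23.4-fold (20.2 to 27.2) and Sptb 14.3-fold (13.01 to 15.7). Epb42 was 373-fold lower, with an interval of 160 to 1149. Set against 0 h instead, none of the 6 members was at least 2-fold higher on the log2 scale and none lower (0.456% and 0.114% of all genes were), and the log2 ratios ran from 0.04 to 0.48. The plain ratio for Slc4a1 was nevertheless 5.74 (2.91 to 12.6), from 58 against 10 counts, and that for Ermap was 2.53 (1.44 to 4.63), while Ank1 at 1.14 (0.920 to 1.42) and Epb42 at 2.47 (0.405 to 25.97) had intervals that held 1. With 0.1 CPM added in place of 0.5, Slc4a1 passed the 2-fold line over 0 h, at a log2 ratio of 1.31.

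With FGF8 added to BMP4 for 5 h, Slc4a1 was 5.51-fold higher than with BMP4 alone (4.16 to 7.42), and Epb42 7.47-fold higher (2.94 to 24.3) from 38 against 5 counts. Kel had 40 counts against 10, 8 or 1, depending on its row, and the row of 10 gives the smallest ratio, 3.93-fold (1.93 to 8.82). Ermap was 1.62-fold higher (1.11 to 2.396). The skeleton genes with a level at 0 h stood nearly alike in both libraries, at 1.06-fold (0.866 to 1.30) for Ank1 and 1.11-fold (0.981 to 1.26) for Sptb. On the log2 scale with 0.5 CPM added, Slc4a1 alone among the 6 was at least 2-fold higher, at 1.35, against 0.185% of all genes (0.0499% were lower). With 2 CPM added it was at 0.61, which ends the call, and with 0.1 CPM added Epb42 joined it at 1.13. The FGF8 library was still far below 96 h untreated in 6 of 6 members (3.17% of all genes were lower and 2.52% higher), from 12.8-fold for Sptb (11.8 to 14.0) to 51.2-fold for Slc4a1 (45.9 to 57.3).

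After 11 h with BMP4 all 6 members were below their 96 h level, by less than 2-fold. Their log2 ratios ran from -0.90 (Kel) to -0.48 (Ermap). All lay below the 5th percentile of all genes, -0.39, but the members were chosen by their levels in these libraries. Other lists with most genes higher at 96 h also had negative medians. These were -0.88 (striated muscle), -0.79 (endothelial), -0.78 (fibroblast), -0.56 (megakaryocyte), -0.48 (other erythroid) and -0.10 (globins). None of the 6 was at least 2-fold below 96 h (0.313% of all genes were, and 2.66% were higher), and each was lower by less, from 1.41-fold for Ermap (1.33 to 1.502) to 1.96-fold for Kel (1.81 to 2.13). Slc4a1 was 1.46-fold lower (1.42 to 1.49), Epb42 1.59-fold (1.47 to 1.72), Sptb 1.62-fold (1.56 to 1.69) and Ank1 1.68-fold (1.60 to 1.77). Against BMP4 for 5 h, 6 of 6 members were higher, while 2.62% of all genes were (0.392% were lower). Slc4a1 was 193-fold higher (150 to 255), Epb42 234-fold (100.1 to 724), Ermap 43.6-fold (32.5 to 59.8), Ank1 13.9-fold (11.9 to 16.2) and Sptb 8.82-fold (7.998 to 9.73). These comparisons share libraries with each other and with those above, the 96 h library in particular, so their values are set side by side and are not independent.

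With FGF4 added to BMP4 for 11 h the members split. Slc4a1 was at 0.987-fold of BMP4 alone (0.959 to 1.02), Epb42 at 0.992-fold (0.908 to 1.08) and Ermap at 1.03-fold (0.966 to 1.11), all with intervals that held 1. Ank1 was 1.18-fold higher (1.12 to 1.25), Sptb 1.28-fold (1.22 to 1.34) and Kel 1.93-fold (1.77 to 2.10). The Kel ratio is less secure, because its BMP4 11 h row was fixed only by matching to the FGF4 column. None of the 6 was at least 2-fold higher on the log2 scale (1.3% of all genes were, and 0.705% were lower), where Kel stood at 0.87; with libraries scaled by plain totals in place of TMM it stood at 1.01, and Slc4a1 at 0.12 in place of -0.02. Against 96 h untreated none of the 6 was at least 2-fold lower with FGF4 (0.121% of all genes were, and 1.45% were higher), with log2 ratios of -0.63 for Epb42 to -0.03 for Kel. The 5th percentile of all genes was -0.346, with Sptb (-0.334) and Kel above it and the other members below. Medians of the same other lists were -0.68 (globins), -0.46 (other erythroid) and -0.45 (striated muscle). Those of the megakaryocyte, endothelial and fibroblast lists were 0.44, 0.47 and 0.61.

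**Figure D2:**
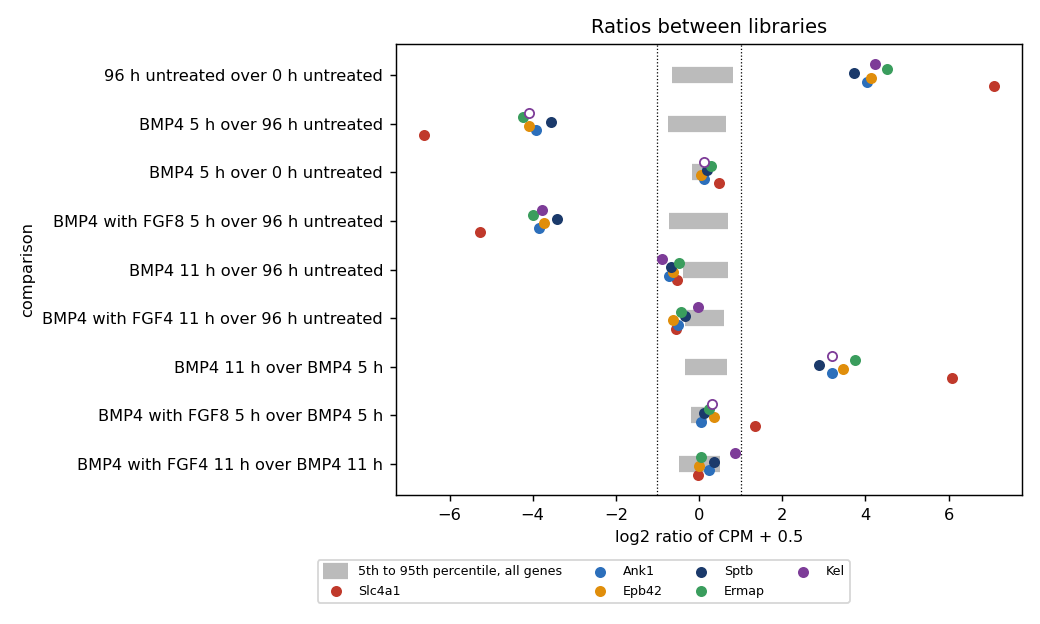
Log2 ratio of CPM + 0.5 for each member (points) in the 9 comparisons between libraries, with the 5th to 95th percentile of all genes as a grey bar and 2-fold as dotted lines. Hollow points mark Kel where it rests on the uncertain BMP4 5 h row. Filled Kel points that use BMP4 for 11 h rest on a row placed only through the FGF4 column. Slc4a1 lies farthest out in the comparisons of a high with a low library, at 7.09 for 96 h over 0 h.

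The members differed in how much of their 96 h increment over 0 h was present in each growth factor library. Taking the CPM above 0 h as a percent of the same increment at 96 h, the BMP4 11 h library held 68.6% ± 0.886 (counting SE) for Slc4a1, 62.8% ± 2.48 for Epb42, 70.6% ± 2.18 for Ermap, 57.9% ± 1.62 for Ank1, 59.3% ± 1.37 for Sptb and 50.9% ± 2.12 for Kel. With FGF4 the shares were 67.7% ± 0.809 for Slc4a1, 62.3% ± 2.27 for Epb42 and 72.9% ± 2.06 for Ermap. They were 69.0% ± 1.66 for Ank1, 77.6% ± 1.48 for Sptb and 98.1% ± 3.03 for Kel. So the order of the genes changed between the 11 h libraries, with Kel lowest under BMP4 alone and highest with FGF4. The place of Kel under BMP4 alone is less secure, because its row there was fixed only by matching to the FGF4 column. The globin genes were lower with FGF4: Hba-x, an embryonic alpha-type globin, stood at 100.7% ± 0.563 with BMP4 alone and 78.1% ± 0.439 with FGF4, and Hba-a1, which shares its reads with Hba-a2, at 93.0% ± 0.204 and 57.0% ± 0.136.

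At 5 h the shares were small but not equal. With BMP4 alone Slc4a1 held 0.293% ± 0.0506 of its 96 h increment, and with FGF8 1.89% ± 0.111. With FGF8 the other members held 1.90% ± 0.336 (Epb42), 1.92% ± 0.478 (Sptb), 2.01% ± 0.341 (Ermap), 2.01% ± 0.321 (Kel) and 0.828% ± 0.450 (Ank1). All but Ank1 thus stood within their counting errors of Slc4a1 on this scale, although Sptb changed little as a ratio over its 0 h level. Hba-a1 held 1.92% ± 0.0235, while the embryonic globin genes Hba-x and Hbb-y held 5.51% ± 0.0999 and 6.93% ± 0.116.

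**Figure D3:**
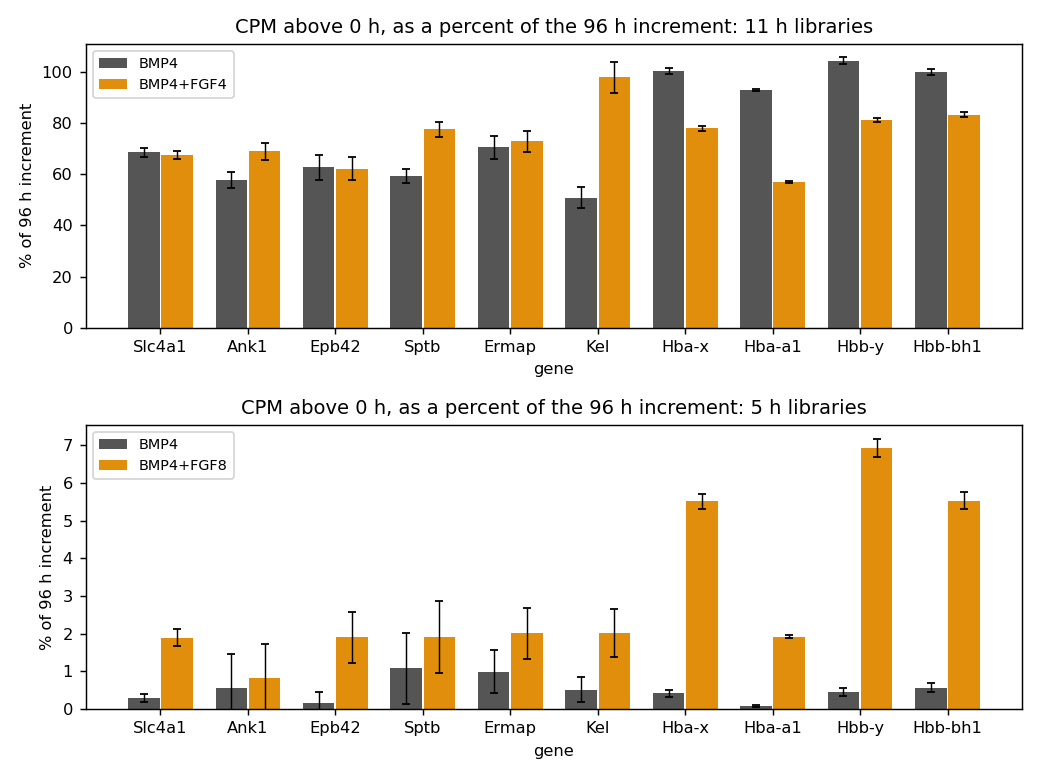
CPM above the 0 h library as a percent of the same increment at 96 h, for the 6 members and 4 globin genes, in the 11 h libraries (upper panel) and the 5 h libraries (lower panel, a smaller scale). Bars start at 0 and error lines are 2 counting standard errors long on each side, cut at 0; with FGF4 the Kel bar reaches 98.1% and the Hba-a1 bar 57.0%.

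Levels between genes were compared per kilobase of annotated exon, where all isoforms of GENCODE M21 count towards the length, so that Ank1, with many isoforms, is understated. At 96 h Slc4a1 led with 15.1 CPM per kb, followed by Kel with 3.18, Sptb with 2.49, Ermap with 2.42, Epb42 with 1.56 and Ank1 with 1.46 CPM per kb. At 0 h the order was another, with Sptb at 0.149 and Ank1 at 0.0547 CPM per kb above Ermap at 0.0155 and Slc4a1 at 0.00934 CPM per kb. The per-kilobase ratio of Slc4a1 to Ank1, band 3 to its ankyrin anchor, was 0.171 at 0 h (0.0803 to 0.322) and 0.858 with BMP4 for 5 h (0.628 to 1.16). It was 4.45 with FGF8 added (3.72 to 5.33), 10.4 at 96 h (10.05 to 10.7), 11.96 with BMP4 for 11 h (11.4 to 12.6) and 9.99 with FGF4 added (9.60 to 10.4). By this measure band 3 transcripts stood below ankyrin transcripts at 0 h and above them at 96 h, with FGF8 and at 11 h. With BMP4 for 5 h the interval held 1. Because Ank1 is understated per kilobase, these ratios are too high, and which transcript was higher with BMP4 for 5 h is not settled.

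Of 20 relatives of these proteins in the table, 10 reached at least 1 CPM in a library and 10 did not. Slc4a2, the widely expressed anion exchanger, was between 20.5 and 27.0 CPM in the 6 libraries, Sptbn1, a beta spectrin of many tissues, between 92.1 and 138 CPM, and Ank3, ankyrin-G, between 22.8 and 35.5 CPM. Ece1, an endothelin-converting enzyme of the Kel family, ran from 30.7 CPM at 0 h to 73.6 CPM with FGF4, and Mog, of the butyrophilin-like family of Ermap, stayed below 1 CPM everywhere. Of 10 paralogues analysed, Tgm2, a transglutaminase related to Epb42, was the 1 that was at least 2-fold higher at 96 h than at 0 h, at 14.6 against 1.22 CPM, and the list's median log2 ratio was 0.24. Per kilobase, the ratio of Slc4a1 to Slc4a2 went from 0.0038 at 0 h (0.0018 to 0.0070) to 5.10 at 96 h (4.96 to 5.25). The ratio of Sptb to Sptbn1 went from 0.0274 (0.0247 to 0.0302) to 0.473 (0.461 to 0.485), so the erythroid spectrin chain stayed the lesser of the pair.

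**Figure D4:**
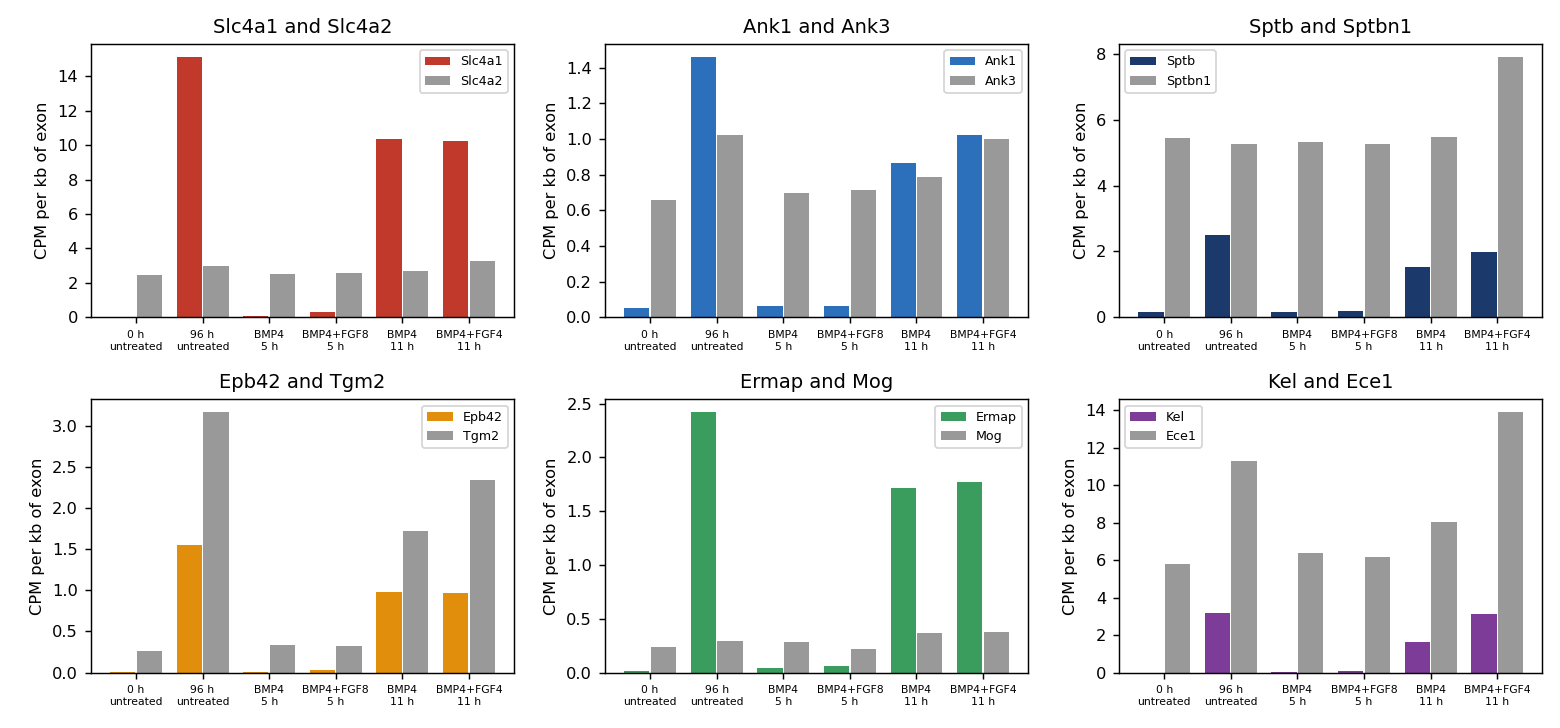
CPM per kilobase of exon for each member (coloured) and its most abundant measured relative (grey) in the 6 libraries, with bars from 0 and a scale of its own in each panel. Slc4a1 and Ermap exceeded their relatives at 96 h and 11 h, and Sptb, Epb42 and Kel stayed below theirs in every library. Per kilobase, Ank1 exceeded Ank3 at 96 h and with BMP4 for 11 h and was level with it with FGF4. This order depends on the exon lengths counted, 13527 bases for Ank1 and 34838 for Ank3. In plain CPM Ank1 was below Ank3 in every library, at 19.7 against 35.5 CPM at 96 h.

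Other genes of the red cell membrane were read from lists of the skeleton and of the surface. Of 10 other skeleton genes analysed, 1 was at least 2-fold higher at 96 h than at 0 h and none was lower, with a median log2 ratio of 0.16. It was Add2, beta adducin, which caps and links actin filaments to spectrin (1.44 and 11.6 CPM). The others, such as Epb41 (listed as Epb4.1), which joins spectrin to actin, at 131 and 141 CPM, and Tmod1, a cap of actin filament ends, at 11.7 and 18.7 CPM, were not. Of 18 other surface and transport genes analysed, 7 were higher and none lower, with a median of 0.14. Kcnn4, a calcium-gated potassium channel of the red cell, went from 0.0640 to 2.33 CPM, and Rhd, of the Rh blood group family, from 0.457 to 2.83 CPM. The blood group genes Art4 and Xk, whose product binds Kell, went from 0.416 to 2.98 CPM and from 1.24 to 4.48 CPM. Slc14a1, Atp2b4 and Cd59a had log2 ratios of 1.09, 1.06 and 1.04. Rhag and Gypc, which were not placed in every growth factor column, stood at 0.0183 and 5.50 CPM and at 3.53 and 14.1 CPM in the untreated libraries. Transporters that many cells use, such as Slc2a1 (214 and 171 CPM), did not differ by 2-fold.

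In BMP4 5 h against 96 h, 1 of 10 skeleton genes and 7 of 18 surface genes were lower. In BMP4 11 h over 5 h 1 of 10 and 3 of 18 were higher, and with FGF8 over BMP4 alone at 5 h, or FGF4 over BMP4 alone at 11 h, none of either list differed by 2-fold.

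The genes whose pattern over the 6 libraries was most like the mean pattern of the 5 placed members were sought among 9999 genes of at least 5 CPM in a library, by the root mean square difference of log2(CPM + 0.5) after centring each gene. Of the 10 nearest, 8 are named here: Hemgn (0.21), Csf2rb (0.27), Tal1 (0.28), Acp5 (0.29), Alas2 (0.34), Pklr (0.35), Hand1 (0.37) and Trim10 (0.41). The members themselves ranged from 0.083 for Ermap to 1.02 for Slc4a1, whose swing is wider than the mean. Hemgn encodes a nuclear protein of blood cells, Csf2rb a cytokine receptor chain, Alas2 the erythroid enzyme that starts haem synthesis and Pklr the pyruvate kinase of red cells and liver. Hand1 is a lateral plate and heart factor, so the nearest patterns were not all of erythroid genes.

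Markers of other cell types moved across the same libraries. Globin genes summed to 25.5 CPM at 0 h, 5299.9 CPM at 96 h, 27.6 and 158 CPM at 5 h (BMP4, then with FGF8) and 5048 and 3174 CPM at 11 h (BMP4, then with FGF4); near-identical copies are counted in each copy. The 6 members summed to 2.69, 154, 3.50, 5.39, 100.005 and 111 CPM in the same order. All 10 globin genes analysed were at least 2-fold higher at 96 h than at 0 h, and 14 of 17 other erythroid genes were, with Alas2 at 2.31 and 40.8 CPM and the mitochondrial iron importer Slc25a37 at 24.8 and 97.2 CPM. The 10 globin genes are not separate measurements. Values were equal or nearly equal for Hba-a1 and Hba-a2, for Hbb-b1 and Hbb-bs, and for Hbb-b2 and Hbb-bt. Gata1 and Klf1, the erythroid transcription factors named here after their values were seen, were at 0.101 and 0.174 CPM at 0 h and at 5.85 and 5.63 CPM at 96 h.

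Endothelial genes were higher at 96 h in 11 of 12 cases, striated muscle genes in 9 of 11 and fibroblast genes in 7 of 10, while all 10 tailbud genes were lower. Their sums at 0 h and 96 h were 18.7 and 124 CPM (endothelial), 18.0 and 135 CPM (striated muscle), 132 and 799.8 CPM (fibroblast) and 390.3 and 21.5 CPM (tailbud). Megakaryocyte genes were higher in 3 of 5 cases (3.83 and 15.7 CPM in sum) and myeloid genes in 1 of 5 (2.31 and 3.58 CPM). Ptprc, the pan-leukocyte marker, had 0 counts at 0 h and with BMP4 for 5 h and was at 0.1251 CPM at 96 h. Ank1 and Sptb are also expressed in striated muscle. Of the muscle genes, Actc1 (6.88 CPM) and Tnni1 (4.12 CPM) were the highest at 0 h. All others of that list were lower there, with Actn2 next at 2.06 CPM. Myh6, Tnnt2 and Myod1 stood at 0.329, 0.608 and 0.0183 CPM. The part of muscle in the 0 h level of Ank1 and Sptb was not tested.

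Where FGF4 was added at 11 h, 8 of 12 endothelial genes, 8 of 10 fibroblast genes, 3 of 11 striated muscle genes, 3 of 5 megakaryocyte genes and 2 of 5 myeloid genes were at least 2-fold higher than with BMP4 alone, and 9 of 10 tailbud genes were lower. The striated muscle sum was 91.9 CPM with FGF4 against 60.1 CPM, with Myh6, a heart muscle myosin, at 14.5 against 6.22 CPM and Actc1 at 25.3 against 24.7 CPM. Itga2b, the platelet integrin alpha chain, stood at 5.95 against 2.20 CPM, Itgb3 at 7.79 against 3.11 CPM and Kdr, a receptor of endothelial cells, at 38.8 against 12.5 CPM. Among the erythroid genes no more than 1 globin gene, Hbq1b (26.7 against 201 CPM), differed by 2-fold. The part of these shifts in the higher Kel, Sptb and Ank1 values was not tested. With FGF8 at 5 h, 6 of 10 globin genes were at least 2-fold higher than with BMP4 alone, none of the other erythroid, endothelial, striated muscle, fibroblast, megakaryocyte, myeloid or tailbud genes analysed was at least 2-fold different, and the globin sum was at 158 against 27.6 CPM.

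**Figure D5:**
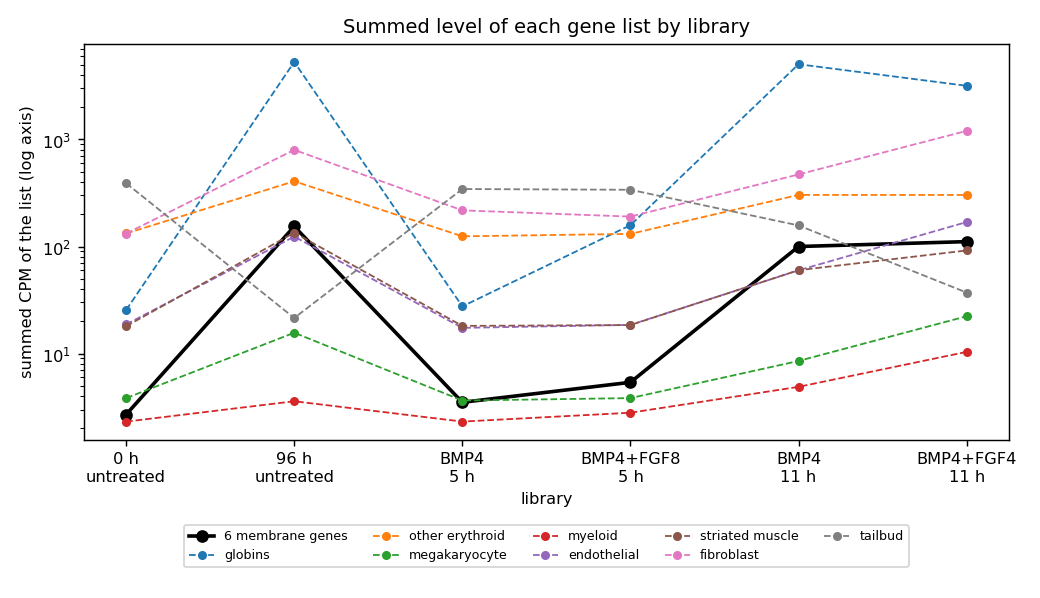
Summed CPM of the 6 members (solid line) and of each marker list (dashed) in the 6 libraries, on a log axis; lines join libraries only to guide the eye. The members run from 2.69 CPM at 0 h to 154 CPM at 96 h and 3.50 CPM with BMP4 for 5 h; with FGF4 at 11 h their sum is above that with BMP4 alone and the globin sum below it, while tailbud genes run the opposite way and fibroblast and endothelial sums are highest with FGF4.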

How the data were processed

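The authors deposited 1 table of raw counts of reads per gene, not normalized. Tools listed in the submitters' processing notes are STAR 2.4.0e, cutadapt, DESeq and HTSeq, and the build is mm10; what each tool did, and how reads were counted, is not stated there. Growth factor columns were aligned, keeping their order, to the names sorted without regard to letter case; a matched row costs nothing within the range of the 2 untreated libraries and more outside it. A gene was kept where any other row cost at least 5 units (nats) more in all 4 columns, or where the column of the same time fixed it. The placement and the ratios were tested on simulated data, with outcomes not reported here. For the placement, simulated levels lay between the 2 untreated libraries, where a match costs nothing, apart from noise and genes given a set fold change. The test therefore says less about genes that growth factors move outside that range. Counts were scaled by TMM on column totals (edgeR 4.0.16, R 4.3.3) to CPM. Ratios carry exact (Clopper-Pearson) and levels exact Poisson 95% intervals, which cover counting error only; with 1 library for each condition there is no p-value. Between 65.4% and 70.7% of values from 1 to 20 are even, and counting of mates as separate reads was not tested; intervals from halved counts are an alternative. Alternatives were another library scaling, pseudocount, filter, placement reference and margin, halved counts and another measure of likeness. The members and all gene lists were chosen with earlier results of these data known. Named genes are the 6 members, up to 12 other membrane genes with the largest change at 96 h, the most abundant relative of each member, up to 4 abundant genes of each marker list and the 10 genes nearest in pattern; results of some genes under this rule are not reported here.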

Additional observations from a re-analysis of the deposited data

How the results depend on the processing

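No paired analysis was possible because each condition has 1 library, and for the same reason no replicate could be left out. The number of members called changed in the following cases. With columns placed on the 96 h column alone, Kel had no row in the BMP4 5 h column, so 5 members in place of 6 were counted as lower with BMP4 for 5 h than at 96 h, and 5 in place of 6 as higher with BMP4 for 11 h than for 5 h. With 2 CPM added, 0 members were higher with FGF8 than with BMP4 alone at 5 h, in place of 1, and with 0.1 CPM added there were 2 (Slc4a1 and Epb42). With 0.1 CPM added, 1 member (Slc4a1) was higher with BMP4 for 5 h than at 0 h, in place of 0. With plain totals, 1 (Kel) was higher with FGF4 than with BMP4 alone at 11 h, in place of 0. Of 382 recomputed log2 ratios of members, 322 moved by less than their counting error and 60 by more, all 60 under another pseudocount or plain totals, and no called ratio changed sign. Taking the next rows for Kel with BMP4 for 5 h, an alternative chosen after seeing the data, moved its log2 ratio to 96 h from -4.10 to -4.12 and -4.21. With counts halved, 3 intervals came to hold 1: Sptb and Kel for BMP4 5 h over 0 h, and Ermap for FGF8 over BMP4 alone. With Pearson's correlation in place of the root mean square difference, 6 of the 10 nearest genes were shared. The share of all genes called also moved, for example from 3.85% (96 h over 0 h, higher) to 2.09% with 2 CPM added, 4.83% with 0.1 CPM added and 3.19% where genes had to reach 5 CPM. Over all alternatives it ran from 2.09% to 4.83% (96 h over 0 h, higher), 1.86% to 4.07% (BMP4 5 h over 96 h, lower), 0.185% to 0.663% (BMP4 5 h over 0 h, higher), 1.74% to 3.95% (FGF8 5 h over 96 h, lower), 0.114% to 0.563% (BMP4 11 h over 96 h, lower), 0.0499% to 0.157% (FGF4 11 h over 96 h, lower), 1.04% to 3.66% (BMP4 11 h over 5 h, higher), 0.107% to 0.242% (FGF8 over BMP4 alone, higher) and 0.449% to 1.72% (FGF4 over BMP4 alone, higher). Counts of 10 or fewer at 0 h and 5 h limit the folds of Slc4a1, Epb42 and Kel.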
